A study of Mus musculus with 18 samples.

Results

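The comparison of Mel+LPS with LPS in the mouse uterus on day 5 of pregnancy comprised 22647 differential m6A peaks, out of 41084 peaks in the 4 tables of the series. Its members were all peaks on all chromosomes in the up and down tables of that comparison. A total of 13436 peaks were in the up table (gained, with more m6A signal in Mel+LPS than in LPS) and 9211 were in the down table (lost). Both groups were female ICR mice of 8 weeks, wild type, and both received LPS, a bacterial cell-wall lipid that triggers inflammation, at 0.5 mg/kg on days 3 and 4. The Mel+LPS mice also received melatonin at 10 mg/kg from day 1 to day 4, with LPS given 30 minutes after it, while the LPS mice received saline instead. Each group had 3 input and 3 immunoprecipitated libraries, and the Veh mice, with saline and no LPS, entered only the other comparison of the series. Whole uterus was sequenced, so fewer cells of a type and less RNA per cell cannot be told apart.

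N6-methyladenosine (m6A) is a methyl mark on adenosines of messenger RNA. It is written by a METTL3-METTL14 complex, removed by FTO and ALKBH5, and read by proteins of the YTH family, which influence the splicing, translation and decay of the marked transcript. It is placed mostly within a short sequence context whose core is GGAC, often in long internal exons and around the stop codon. In the uterus of early pregnancy, luminal and glandular epithelium, stroma that will decidualize, smooth muscle and leukocytes all contribute RNA.

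The deposited value of a peak was 1 score for the whole comparison, the log10 likelihood ratio of the difference between the treatments. A score is neither a fold change nor a level, and no value per library was given, so the spread between replicates could not be set against any difference and no p-value is printed. The depth of the libraries is unknown. A change in m6A and a change in the amount of the transcript cannot be told apart from these tables alone. The score ranged from 1.01 to 168 in gained peaks (median 2.17) and from 1.03 to 103 in lost peaks (median 3.09). Many peaks shared 1 value: 1370 lost peaks (14.9%) had the score 3.85, and 70.4% of them lay in introns or between genes, while 479 gained peaks (3.57%) had the score 5.42. A further 194 lost peaks had the score 6.29.

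Short stretches of 30 bases are shown for peaks of genes described below, to show the m6A core motif where it lay inside gained and lost peaks. They are read from GENCODE release M21 transcripts (build GRCm38, mm10) in the direction of the transcript, since the peaks carry no strand of their own. The capitals mark GGACT, which holds the core and the base after it.
Rorb gained: cccgatcagtcaGGACTggacatgactggg
Lrp6 gained: aggcatggcagtGGACTggcttgggaagaa
Socs4 gained: gtccattgagttGGACTtagatcattcctg
Col6a3 gained: gggatcttctctGGACTttgttcgaaacaa
Chd9 gained: gaaccatttgcaGGACTtgaccctgaagac
Chd9 lost: ctaggcatgggaGGACTcctgtcaaagact
Shisa3 lost: gtagactctgaaGGACTcacagagaggtga
Fos lost: tgtgggcctcaaGGACTtgcaagcatccac
Fosb lost: ccggtctactccGGACTcgcatctcattcc
Muc1 lost: tggctctcagaaGGACTggcctggaaaact

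The windows of Rorb (chr19:18977696-18977725, minus strand), Lrp6 (chr6:134484340-134484369, minus strand), Socs4 (chr14:47289816-47289845, plus strand), Col6a3 (chr1:90816244-90816273, minus strand) and Chd9 (chr8:90933602-90933631 gained and chr8:91051454-91051483 lost, plus strand) lay in coding sequence. Those of Shisa3 (chr5:67613527-67613556, plus strand), Fos (chr12:85476600-85476629, plus strand) and Muc1 (chr3:89233295-89233324, plus strand) lay in the 3' UTR, and that of Fosb (chr7:19309500-19309529, minus strand) in the 5' UTR. Across all peaks whose centre fell on an exon of exactly 1 chosen transcript, GGAC occurred 5.85 times per 1000 bases in 5716 gained windows and 4.94 times in 2846 lost windows. The flanking sequence of the same exons held 4.16 and 3.82 per 1000 bases. GGACT was present in 30.5% of gained windows and 24.2% of lost windows, against 16.4% of all tiles of 170 bases cut from the same set of transcripts. For GGAC the shares were 65.2%, 55.1% and 47.7%. Windows had the width of their peak and tiles a fixed 170 bases. A longer window has more room for a match, so these shares are not matched for length. Windows moved 100 bases toward the 5' end held GGAC 5.89 times (gained) and 4.98 times (lost) per 1000 bases, no fewer than the unmoved windows. Only the transcript strand was searched, and matches of the longer motif also count for the shorter one. A match describes the letters in the window and does not show that an adenosine there was methylated.

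Gained and lost peaks lay in different parts of genes. Exons held 52.3% of gained peaks (95% Wilson interval 51.5 to 53.2, 7032 of 13436) and 26.6% of lost peaks (25.7 to 27.5, 2449 of 9211). Introns held 11.6% of gained and 22.4% of lost peaks, and distal intergenic sequence held 4.42% and 17.1%. The 3' UTR held 19.2% (18.5 to 19.8) and 22.4% (21.5 to 23.2), and the 5' UTR 5.69% and 2.64%. With scores of at least 3 the order of the 3' UTR shares turned, to 13.6% of gained and 10.6% of lost peaks. Most of the exon difference came from internal exons, with 38.9% of gained and 14.5% of lost peaks, whereas last exons were close at 7.61% and 8.20%. The intervals cover the counting of peaks only and not the spread between mice.

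**Figure D1:**
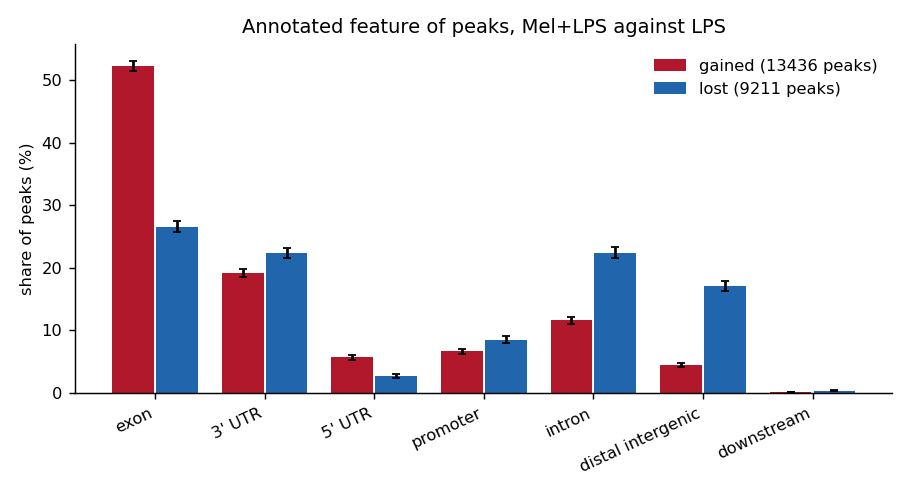
Share of peaks (%) in each annotated feature for gained (red) and lost (blue) peaks, with 95% Wilson intervals over peaks as error bars. Exons held 52.3% of gained and 26.6% of lost peaks, while introns and distal intergenic sequence held larger shares of lost peaks.

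Along the spliced transcript, gained peak centres sat nearer the 5' end and the middle, and lost centres nearer the 3' end. The median relative position, from 0 at the 5' end to 1 at the 3' end, was 0.436 for 5716 gained centres and 0.664 for 2846 lost centres. When the transcript was cut into 10 equal parts, the part at the 3' end held 5.81% of gained and 19.7% of lost centres, and part 4 held 15.05% and 8.40%. Coding sequence of the chosen transcript held 60.2% of gained and 39.3% of lost centres. Its 3' UTR held 37.5% and 58.9%, a wider gap than by the authors' annotation over all peaks.

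**Figure D2:**
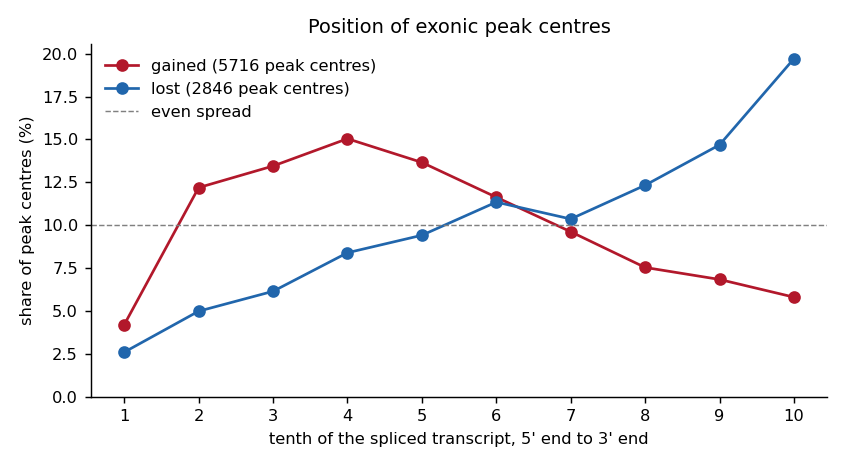
Share of exonic peak centres (%) in each of 10 equal parts of the spliced transcript, for gained (red, 5716) and lost (blue, 2846) peaks, with the dashed line at an even spread. The lost share rises towards the 3' end to 19.7%, and the gained share is highest in part 4 at 15.05%.

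A host gene could be given to 10459 gained peaks (77.8%) and 5675 lost peaks (61.6%). The gained peaks fell in 6537 genes and the lost peaks in 4406 genes, 1564 of which hosted both. Of the 21900 protein-coding genes annotated by RefSeq, 5592 (25.5%) hosted a gained peak, 3337 (15.2%) a lost peak and 1414 (6.46%) both. Genes not expressed in the uterus are in these totals, and expression was not measured here, so the shares of a list are given beside these totals as a description only. With hosts taken instead from exons of the reference annotation (GENCODE), 4009 genes had a gained and 2414 a lost peak. No share over all protein-coding genes was computed for that setting, so list counts there are given without one. Among the 7515 protein-coding genes with any peak, 55.6% had only gained peaks, 25.6% only lost peaks and 18.8% both. Long noncoding RNAs were 4.64% of gained hosts (303) and 14.0% of lost hosts (616). They included the imprinted transcripts Airn, with 11 lost and 3 gained peaks, and Kcnq1ot1, with 7 lost and 1 gained.

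Protein-coding genes hosted 9323 gained and 4382 lost peaks, and numbers per gene are given without an adjustment for that difference. A single peak was found in 61.7% of gained and 77.2% of lost protein-coding hosts, and 364 against 60 genes held 4 or more. The cytoskeletal linker Dst and the transcriptional repressor Spen had 14 gained peaks each. They were followed by Macf1 (13), Col3a1 (13), Ahnak (12) and Col6a3 (12). Of these genes, Dst also had 4 lost peaks, Macf1 3, and Ahnak and Col6a3 1 each, while Spen and Col3a1 had 0. No adjustment was made for gene length or number of exons. The proliferation marker Mki67 had 11 gained and 0 lost peaks. The most lost peaks in a protein-coding gene were 7, in Ctse and in Chd9.

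**Figure D3:**
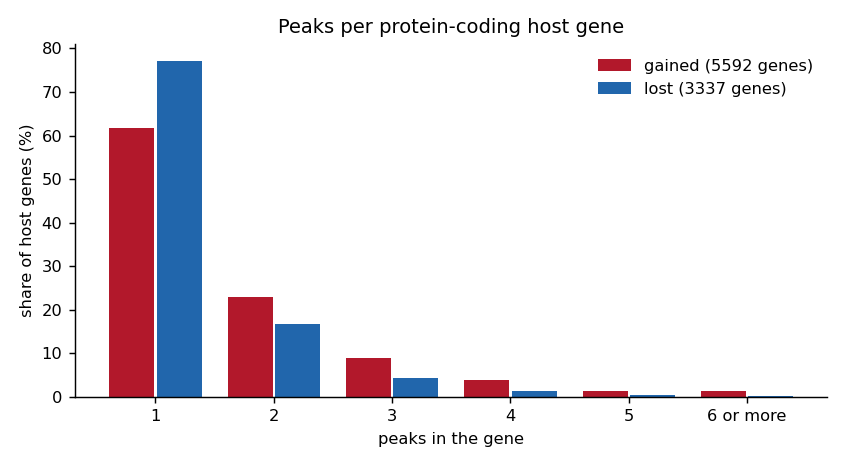
Share of protein-coding host genes (%) by the number of gained (red, 5592 genes) or lost (blue, 3337 genes) peaks they held. A single peak was found in 61.7% of gained and 77.2% of lost hosts.

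The highest gained scores among host genes were led by the uncharacterized transcript Gm39701 (122). Aoc1, the diamine oxidase that breaks down histamine and polyamines, gained all 3 of its peaks, with scores of 39.5, 20.9 and 4.99. Prss28, an implantation serine protease of uterine glands, gained 3 peaks at 37.96, 24.0 and 20.5. Tdo2, which opens the tryptophan degradation pathway and is known in decidual stroma, gained 4 peaks, the highest at 30.9 in intron 1. In the comparison of LPS with Veh, which shares the LPS libraries, the same 3 Aoc1 regions overlapped LPS-down peaks scoring 143, 110 and 86.6.

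Of the named genes with the highest lost scores, several carried them in introns. Cdh20, a classical cadherin, had the highest at 103 in intron 1, and it also had a gained peak at 18.1 in that intron. Hspa1a-3, described below, was second at 52.6. Intron peaks with high lost scores were also found in Grik2 (22.6), Kat8 (19.7), Myh11 (19.4) and Pole4 (19.002). Shisa3, an antagonist of Wnt and FGF receptor maturation, was lost at 19.1 in the 3' UTR, in the peak whose sequence is shown above. In the comparison of LPS with Veh, the Cdh20 region overlapped an LPS-up peak scoring 102 and the Pole4 region one scoring 18.8.

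Among 28 gene lists, extracellular matrix genes showed one of the widest gaps between the directions. Of 74 members, 47 (63.5%) hosted a gained peak and 13 (17.6%) a lost peak, with 8 hosting both, and 22 had neither. Over all protein-coding genes the shares were 25.5% and 15.2%, so the lost share was close to that total. They held 192 gained peaks, 145 of them in exons, and 18 lost peaks. Col1a1, a chain of type I collagen, had 11 gained peaks in 11 exons and 0 lost peaks, with scores from 1.27 to 11.6. Col3a1, the chain of type III collagen, had 13 gained peaks, with scores from 1.20 to 6.05, and 0 lost. The microfibril protein Fbn1 gained 4 peaks, the highest (17.1) in intron 15. Fn1 gained 9 and Postn gained 8. Col6a6 was a member with more lost than gained peaks, 4 against 3.

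Smooth muscle genes separated by feature. Of 39 contractile genes, 24 (61.5%) hosted gained and 11 (28.2%) lost peaks, beside 25.5% and 15.2% of all protein-coding genes. All 16 of their hosted lost peaks lay in introns, whereas 62 of the gained peaks lay in exons, by the authors' annotation. The host rule left 56.3% of all lost and 56.7% of all gained 3' UTR peaks without a gene. Any such peaks of these genes are missing from the counts. With hosts taken instead from exons of the reference annotation, 15 members were gained and 3 lost, so some lost peaks lay on exons there. Over all protein-coding hosts, 37.5% of lost peaks and 14.9% of gained peaks were intronic. Myh11, the smooth muscle myosin heavy chain, gained 4 exon peaks with scores from 1.68 to 4.41 and an intron 8 peak at 5.35, and lost 1 peak in intron 3 at 19.4. Synpo2 gained 8 peaks, up to 17.8, and lost 2. The actin-binding filamin Flna gained 11 and lost 0.

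Heat shock and chaperone genes leaned to gained peaks. Of 45 members, 23 hosted a gained peak (51.1%), 2 a lost peak (4.44%) and 0 both, beside 25.5% and 15.2% of all protein-coding genes. Hspa14 scored 10.01, and Hsph1, an HSP110 exchange factor, gained 3 peaks up to 7.59. The mitochondrial chaperonin Hspd1 gained 4 and the endoplasmic reticulum chaperone Hsp90b1 gained 5. The lost members were Dnajb6, at up to 5.60, and Bag5, at 3.34. The separately annotated copy Hspa1a-3, on a sequence outside the main chromosomes and not a member of the list, was lost at 52.6. It shares sequence with its near-identical copies, so its placement is uncertain.

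Hox genes leaned the other way. Of 39 members, 12 hosted a lost peak (30.8%), 1 a gained peak (2.56%) and 26 neither. Over all protein-coding genes 15.2% were lost and 25.5% gained. Hox genes encode homeodomain factors that pattern the reproductive tract. Hoxc8 had the highest lost score in its last exon, at 6.29, a value shared by 194 lost peaks of the comparison. The other 11 were low, from 1.15 to 2.12 for their highest peak. Hoxd3 was the gained member, at 2.99. The uterine receptivity factors Hoxa10 and Hoxa11 hosted no peak, though the authors assigned 2 lost peaks to Hoxa11. With scores of at least 3, where 10.6% of protein-coding genes were gained and 8.18% lost, the list held 1 lost and 0 gained members, so its lean rested on low scores.

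**Figure D4:**
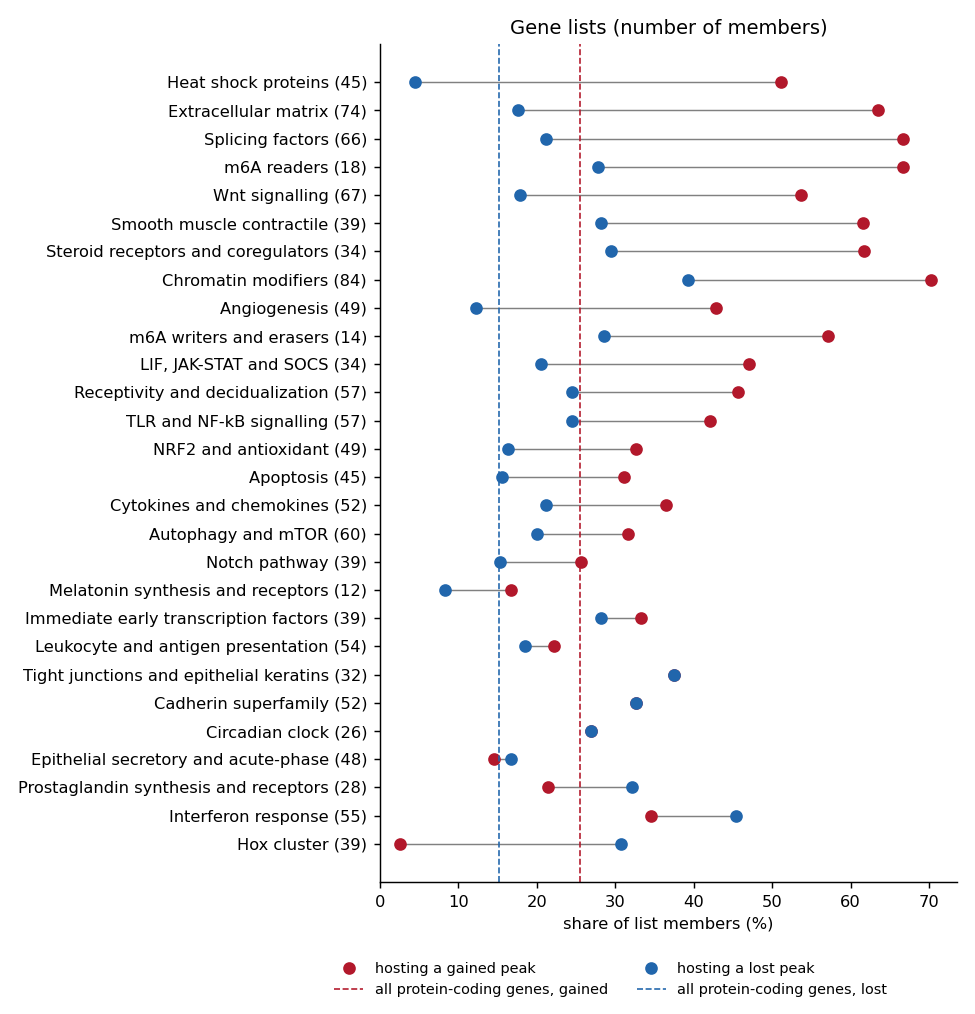
Share of members (%) hosting a gained (red) or lost (blue) peak in each of 28 gene lists, with the number of members in brackets and dashed lines at the shares over all protein-coding genes (25.5% and 15.2%). Where the shares are equal only the blue point shows. Heat shock and extracellular matrix genes lie far to the gained side, and Hox, interferon, prostaglandin and epithelial secretory genes have the larger lost share.

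Interferon response genes had more lost than gained members. Of 55 members, 25 (45.5%) hosted lost and 19 (34.5%) gained peaks, with 9 hosting both. Over all protein-coding genes 15.2% were lost and 25.5% gained. Ddx58, the cytosolic RNA sensor RIG-I, was lost in 2 peaks up to 9.63, and Parp9 in 2 up to 8.98. Ifit3 lost 3 peaks up to 5.34, and Isg15 lost 1 at 2.28. Rnf213, a large ubiquitin ligase, hosted 5 gained and 3 lost peaks, the highest gained at 11.5. With scores of at least 3, 7 members were gained and 7 lost, where 10.6% and 8.18% of all protein-coding genes were. On exons of the reference annotation 9 were gained and 25 lost, where 4009 genes in all were gained and 2414 lost.

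Immediate early transcription factors hosted peaks of both directions. The list had 13 gained (33.3%) and 11 lost (28.2%) members of 39, with 1 in both, beside 25.5% and 15.2% of all protein-coding genes. The lost members included Fos (2 peaks, 4.54 and 4.42), Fosb (3.65) and the orphan receptors Nr4a1, Nr4a2 and Nr4a3, while the gained members included Klf6, Junb, Myc and Jun. With scores of at least 3, where 10.6% of all protein-coding genes were gained and 8.18% lost, only Fos and Fosb remained, both lost. These 2 of 39 members are a lost share below that 8.18%.

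**Figure D5:**
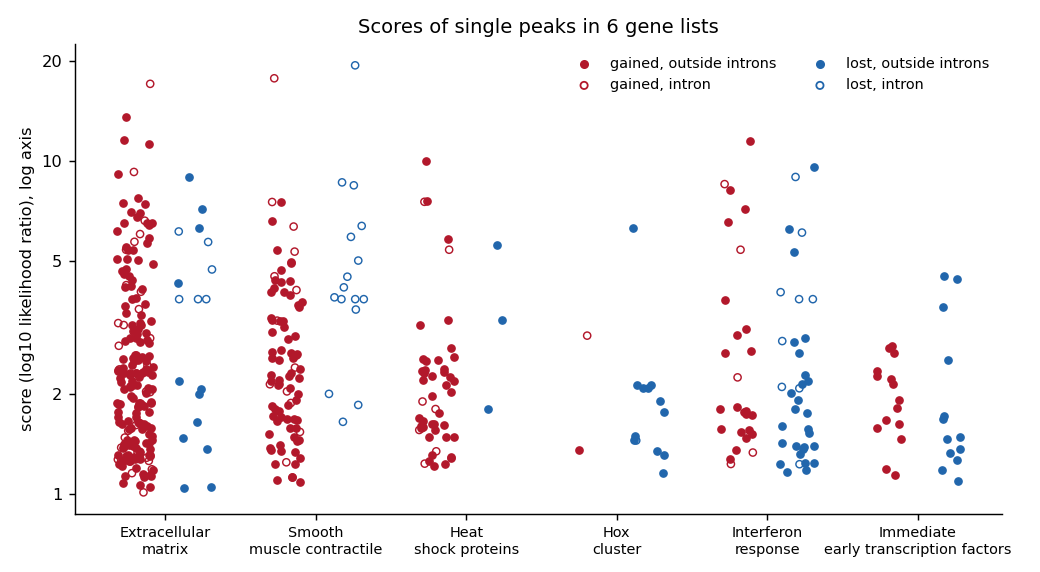
Score of each peak (log10 likelihood ratio, on a log axis) in 6 gene lists, gained in red and lost in blue, with open circles for intron peaks. All lost smooth muscle peaks that were given a host gene are open circles, by the authors' annotation. Hox peaks are few, with 1 lost peak at 6.29, a score shared by 194 lost peaks.

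Receptivity and decidualization genes had 26 gained (45.6%) and 14 lost (24.6%) members of 57, beside 25.5% and 15.2% of all protein-coding genes. The progesterone receptor Pgr lost 3 peaks in intron 3, at 11.6, 4.69 and 2.77, and gained 1 exon peak at 1.61. The estrogen receptor Esr1 gained 3 peaks, the highest at 6.80, and lost 2, the highest at 9.04. Each of its lost peaks was intronic. Lif, the cytokine that opens the implantation window in mice, gained 3 peaks up to 5.24. Wnt4 gained 4 up to 7.13 and Bmp2, both decidual signals, gained 1 at 5.65. In the LIF and JAK-STAT list 16 of 34 members (47.1%) were gained and 7 (20.6%) lost. Among them was Stat3 with 4 gained peaks, at 7.01, 3.10, 2.27 and 1.34, and 0 lost. Wnt signalling had 36 gained (53.7%) and 12 lost (17.9%) members of 67, and its lost share was close to that of all protein-coding genes. Lrp6, a Wnt co-receptor, gained 5 peaks up to 11.4 and lost 0, while the feedback inhibitor Axin2 lost 4 up to 4.69 and gained 0.

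Epithelial genes were divided. The keratins Krt8, Krt18 and Krt19 were lost, Krt19 in 4 peaks at 5.24, 3.84, 3.36 and 3.19. The junction genes Cgn (11.9), Tjp1 (4 peaks up to 2.73), Cgnl1 (3 peaks) and Ocln were gained, as was the epithelial cadherin Cdh1 at 11.8. Of 48 epithelial secretory and acute-phase genes, 7 were gained (14.6%) and 8 lost (16.7%), with 0 in both. Over all protein-coding genes 25.5% were gained and 15.2% lost. With scores of at least 3, where 10.6% and 8.18% of all protein-coding genes were gained and lost, the counts turned to 4 and 2. The lost members included the estrogen-responsive lactoferrin Ltf (4 peaks, 1.68 to 3.01), the lipocalin Lcn2 (2.72) and the mucin Muc1 (2 peaks, 1.81 and 1.72). Aoc1 and Muc4 (7.23) were gained. Hand2, known as a stromal factor, gained 2 peaks, up to 1.81, and Ptprc, known as a leukocyte marker, hosted 1 gained peak (7.62) and 2 lost peaks. The tables hold no expression level, so the makeup of the tissue could not be checked from these markers.

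Inflammation and cell death genes hosted peaks of both directions. Toll-like receptor and NF-κB genes had 24 gained (42.1%) and 14 lost (24.6%) members of 57. With scores of at least 3 they had 5 and 6, where the shares over all protein-coding genes were 10.6% and 8.18%. Tlr4, the LPS receptor, gained 1 peak at 1.58 and Rela 1 at 2.38, while the adaptor Myd88 lost 1 at 1.49. Il1b was gained at 7.11 in an intron and Il1rap was lost at 8.18 in the last exon. Autophagy genes had 19 gained and 12 lost members of 60 (31.7% and 20%, beside 25.5% and 15.2% of all protein-coding genes), with Sqstm1 gained at 1.36 and Ulk2 lost at up to 10.6. Apoptosis genes had 14 gained and 7 lost of 45 (31.1% and 15.6%), and 2 and 4 with scores of at least 3. By the host rule, which left many of the 3' UTR peaks without a host, no peak was given to Casp9, Bax, Bcl2, Atg7, Atg5 or Becn1. The authors assigned 1 gained and 1 lost peak to Bax, and 1 lost peak lay on an exon of Bcl2 in the reference annotation.

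Of 14 m6A writers and erasers, 8 were gained (57.1%) and 4 lost (28.6%), with no score above 3.76. Over all protein-coding genes 25.5% were gained and 15.2% lost. With scores of at least 3 the list held 1 gained and 0 lost members, where 10.6% and 8.18% of all protein-coding genes were gained and lost. On exons of the reference annotation it held 5 and 2. Virma gained 4 exon peaks, from 1.40 to 3.76, and Fto gained 2, at 1.57 and 1.36. Mettl14 had 1 gained peak at 2.18 and 1 lost peak at 2.15. Mettl3, Mettl16 and Alkbh5 hosted none. Of 18 readers, 12 were gained (66.7%) and 5 lost (27.8%), against 5 and 1 with scores of at least 3. Ythdf3 gained 4 peaks, the highest at 10.1 in the 5' UTR, Elavl1 gained 3 up to 8.13, Ythdc1 gained 2 up to 6.97 and lost 1, and Ythdf1 gained 2, up to 4.68. Of 12 genes listed under melatonin synthesis and reception, 2 hosted a gained peak (16.7%) and 1 a lost peak (8.33%). Both shares were below those of all protein-coding genes. The hosts were the nuclear receptors Rorb (gained, 14.8) and Rora (lost, 10.3 in intron 1) and the quinone reductase Nqo2 (gained, 1.60). The receptor gene Mtnr1b hosted none, though the authors assigned 2 lost peaks to it.

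Chromatin modifiers hosted the largest share of gained members among the 28 lists, 59 of 84 (70.2%), with 33 lost (39.3%) and 24 in both. Over all protein-coding genes 25.5% were gained and 15.2% lost. Brd2, a bromodomain reader of acetylated histones, was gained at 17.3, and Ep300, a histone acetyltransferase, gained 5 peaks up to 12.003 and lost 1. Tet3, which oxidizes 5-methylcytosine, lost 2 peaks up to 13.1. Chd9 held peaks of both directions, with 6 of its 7 lost peaks in introns and 3 gained peaks outside introns. Splicing factors had 44 gained (66.7%) and 14 lost (21.2%) of 66. With scores of at least 3 they had 16 and 5, where 10.6% and 8.18% of all protein-coding genes were gained and lost. On exons of the reference annotation they had 20 and 5.

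The other lists are given beside the 25.5% gained and 15.2% lost of all protein-coding genes. Angiogenesis genes had 21 gained (42.9%) and 6 lost (12.2%) members of 49, with the semaphorin and VEGF co-receptor Nrp1 gained at 13.2. Steroid receptors and coregulators had 21 and 10 of 34 (61.8% and 29.4%), and cytokines and chemokines 19 and 11 of 52 (36.5% and 21.2%). Antioxidant genes had 16 and 8 of 49 (32.7% and 16.3%). Notch pathway genes had 10 and 6 of 39 (25.6% and 15.4%), close to the shares over all protein-coding genes. Leukocyte and antigen presentation genes had 12 and 10 of 54 (22.2% and 18.5%), a gained share below that of all protein-coding genes. Equal numbers were gained and lost among circadian clock genes (7 and 7 of 26, 26.9% each) and cadherins (17 and 17 of 52, 32.7% each). The same held for tight junction and keratin genes (12 and 12 of 32, 37.5% each). That balance did not hold in every setting. On exons of the reference annotation clock genes had 10 gained and 4 lost members, and tight junction and keratin genes 11 and 6. With scores of at least 3 the latter had 2 and 6, where 10.6% and 8.18% of all protein-coding genes were gained and lost. Prostaglandin genes had 6 gained (21.4%) and 9 lost (32.1%) of 28. Hpgd, which inactivates prostaglandins, was lost in 2 peaks up to 8.14. With hosts taken from exons of the reference annotation the list had 10 gained and 5 lost members instead.

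Families grouped by the start of their symbol, chosen after their values were seen, also differed in the balance of directions. All 6 hosts among 7 Psmc proteasome ATPase genes (85.7%) and all 6 among 9 Cct chaperonin genes (66.7%) held gained peaks, and 0 held lost peaks. Over all protein-coding genes 25.5% were gained and 15.2% lost. Families of 7 and 9 genes are too small to set 0 lost members against that lost share. Of 56 Eif translation initiation factor genes 27 (48.2%) hosted gained and 8 (14.3%) lost peaks, the latter near the 15.2% of all protein-coding genes. Of 44 Rps small ribosomal subunit genes 10 hosted gained and 0 lost peaks. That gained share of 22.7% was below the 25.5% of all protein-coding genes. More lost than gained members were found among Cfap cilia and flagella genes, 12 (35.3%) against 6 (17.6%) of 34. Ifit genes had 4 lost (66.7%) and 2 gained (33.3%) of 6.

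In the 1414 protein-coding genes with both directions, gained and lost peaks lay in different features. Of their 2579 gained peaks 70.2% were in exons and 15.5% in introns, and of their 1932 lost peaks 39.9% and 40.8% were. The median distance between the nearest gained and lost peak of a gene was 5973 bases along the genome. It was within 500 bases in 11.6% of these genes and over 10000 bases in 39.5%.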

How the data were processed

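Uterine RNA was cut into pieces of about 100 nucleotides and pulled down with an antibody to m6A. Before deposit the authors used Fastp (0.12.3) for trimming, STAR (2.5.2a) for alignment to mm10, exomePeak2 (4.2) for peaks, MACS2 (listed as version 3.4) for the differences and ChIPseeker (1.22.1) for annotation. How replicates were combined is not given in the sources used here. The deposited values are a score per peak, the log10 likelihood ratio, which the file's column names do not spell out. The direction was taken from the names of the tables. The LPS against Veh down table ended within chromosome 10, so its values are given for chromosomes 1 to 9 only.

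The host gene was the symbol in the annotation of exon and intron peaks, and otherwise the assigned gene where the peak centre lay within it. By this rule 56.7% of gained and 56.3% of lost 3' UTR peaks had no host. Gene biotypes came from RefSeq (GRCm38.p6), and 1 protein-coding GENCODE transcript per gene gave positions and motifs. The flanks used for GGAC lay in the exon of the peak centre. Windows under 50 bases were left out. Wilson intervals (95%) were computed with scipy (1.17.1). The counting was tested on simulated data. The genes named were, per direction, the 10 with the highest score and the 5 with most peaks (also among genes without the other direction), up to 3 per list and direction, all m6A and melatonin genes, and genes measured by qPCR in the study. Other named genes (among them Hspd1, Hsp90b1, Fn1, Postn, Lif, Wnt4, Bmp2, Ifit3 and Isg15) were chosen from the lists after their values were seen. Members and lists were chosen with earlier results of these data known. No test was run, since no value per library was used.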

Additional observations from a re-analysis of the deposited data

How the results depend on the processing

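No paired analysis was possible because each peak carried 1 score for the whole comparison, and for the same reason no library could be left out. With scores of at least 3, 2740 genes had a gained peak, 2439 a lost peak and 489 both. With the authors' assigned gene for every peak, 6934 genes had a lost peak and 2412 both, and with exons of the reference annotation the counts were 4009, 2414 and 691. Leaving out intron peaks gave 934 genes with both. The 3' UTR share of gained and lost peaks was 13.6% and 10.6% with scores of at least 3, so that the order of the directions turned, 10.6% and 15.9% over hosted peaks only, and 11.6% and 15.96% with 1 peak per host gene. The cause was not tested. Without the most shared score, an alternative chosen after seeing the data, the lost share was 25.6%. GGAC per 1000 bases was 5.40 in gained and 4.59 in lost peaks with scores of at least 3, and GGACT, being longer and rarer by construction, 1.82 and 1.56. Of 28 lists, 18 kept the direction with more members with scores of at least 3 and 4 turned (Toll-like receptor, apoptosis, immediate early and epithelial secretory genes). With exons of the reference annotation 24 kept it and 1, prostaglandin genes, turned. Low scores and unknown depth limit every list.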
